A study of Mus musculus with 2 samples.

Results

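Egr-positive cells are B cells of the germinal center light zone in which transcripts of the early response genes Egr1, Egr2, Egr3 and Nr4a1 were found. They were chosen by their RNA counts. A cell barcode was kept if it held at least 500 genes, at least 2000 unique molecular identifiers (UMIs, which count captured RNA molecules once each) and at most 25% mitochondrial UMIs. The light zone gate took kept barcodes with no UMI of Cxcr4, the chemokine receptor that holds cells in the dark zone, and at least 1 UMI of Cd83 or Cd86, an activation marker and a costimulatory ligand of the light zone. Egr-positive cells were the gate cells with at least 2 UMIs of Egr1, Egr2, Egr3 and Nr4a1 added together, a number called the Egr sum here. There were 510 of them, 286 in library 1 and 224 in library 2, among 4011 gate cells, 11418 kept barcodes and 16633 barcodes in all. They made up 12.5% of the gate in library 1 and 13.1% in library 2.

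The cells had been sorted as germinal center B cells from spleens of C57BL/6J mice, an inbred laboratory strain, at 8 weeks of age. They had received sheep red blood cells (SRBC), a standard immunization for splenic germinal centers, and no other genotype or treatment is labelled. RNA 3′ ends were sequenced from single droplets in 2 libraries of this 1 group. The comparisons are therefore between cells within a library, and separate animals for the libraries are not stated in the labels.

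Binding of antigen to the B cell receptor starts tyrosine kinase, calcium and ERK signals, and genes such as Egr1, Egr2, Egr3 and Nr4a1 are transcribed soon after. EGR proteins are zinc finger transcription factors and Nr4a1 encodes Nur77, an orphan nuclear receptor, and reporters of both are widely used to mark lymphocytes that have met antigen. In the light zone, B cells take antigen from follicular dendritic cells and present it to T follicular helper cells, whose CD40 ligand acts on B cells through NF-kB. The counts do not measure receptor engagement, so the cells are named here by the transcripts that chose them.

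The libraries held 75121538 UMIs over 8765 barcodes and 61874342 UMIs over 7868 barcodes, and 30905 genes were listed. The median mitochondrial share over barcodes was 17.8% in library 1 and 21.02% in library 2. The libraries shared 22 cell barcodes, of which 0 were Egr-positive in both and 3 were Egr-positive or matched cells in either. Scrublet, a doublet caller, marked 0 barcodes in each library, so doublets were not removed. Germinal center identity genes were present: among matched Egr-positive cells, a UMI of Bcl6, the master regulator of the germinal center, was found in 56.5% and 55.2%, against 59.3% and 61.9% of matched Egr-zero cells in libraries 1 and 2. A UMI of Pax5, the B lineage factor, was found in 86.0% and 89.2% of Egr-positive cells, against 86.0% and 83.0% of Egr-zero cells.

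Egr1 supplied most of the transcripts that chose the cells. It was found in 255 of the 286 Egr-positive cells of library 1 (89.2%) and in 199 of the 224 of library 2 (88.8%), and gave 66.9% and 60.6% of the UMIs of the Egr sum. Egr3 was found in 96 and 83 cells, Nr4a1 in 52 and 30, and Egr2 in 46 and 49. All 4 genes were found together in 5 cells of library 1 and 7 of library 2, whereas a single one of them was found in 158 and 118. The Egr sum had a median of 3 in both libraries and reached 30 in library 1 and 25 in library 2. These values chose the cells and are given without a test. Just inside the threshold lay 120 and 94 cells with a sum of 2, and just outside it 302 and 247 gate cells with a sum of 1. Both Cd83 and Cd86 were found in 158 of the Egr-positive cells of library 1 and 128 of library 2, Cd83 alone in 97 and 82, and Cd86 alone in 31 and 14.

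Egr-positive cells were deeper than the 1708 and 1244 gate cells with a sum of 0, with median totals of 8179.5 and 8057.5 UMIs against 5971.5 and 5833.5. Each was therefore paired within its library with an Egr-zero cell whose total lay within 10% of its own, which left 285 and 223 pairs. Matched medians were 8175 UMIs for Egr-positive and 8177 for Egr-zero cells in library 1, and 8036 against 8051 in library 2. Counts were added up over the cells of each class in each library, and levels are given as CPM, a gene's UMIs per 1000000 UMIs of that sum. The 7 genes of the gate and the Egr sum were left out. Gene coordinates are those of GENCODE M21 on mm10.

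The first comparison asked what else differed in Egr-positive cells once depth was matched. Their clearest increases included Kdm6b, regulators of NF-kB, early response genes and 2 feedback genes of the EGR and ERK pathways. Genes of mitosis and of the dark zone were lower. Of 9051 genes tested with the quasi-likelihood method of edgeR, with the library as a block, 249 were higher (2.75%) and 167 were lower (1.85%) at an adjusted p below 0.05, 4.6% in all. Without a test, both Egr-positive sums lay on one side of both Egr-zero sums in 36.5% of the genes. The call held for 15 genes under all alternative settings that could measure them, out of 15 settings tried: 14 higher genes and 1 lower gene. These 15 were picked out after their values were seen. The number of calls depended on the setting, with 24 higher and 15 lower by DESeq2 and 24 higher and 2 lower without the library block.

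**Figure D1:**
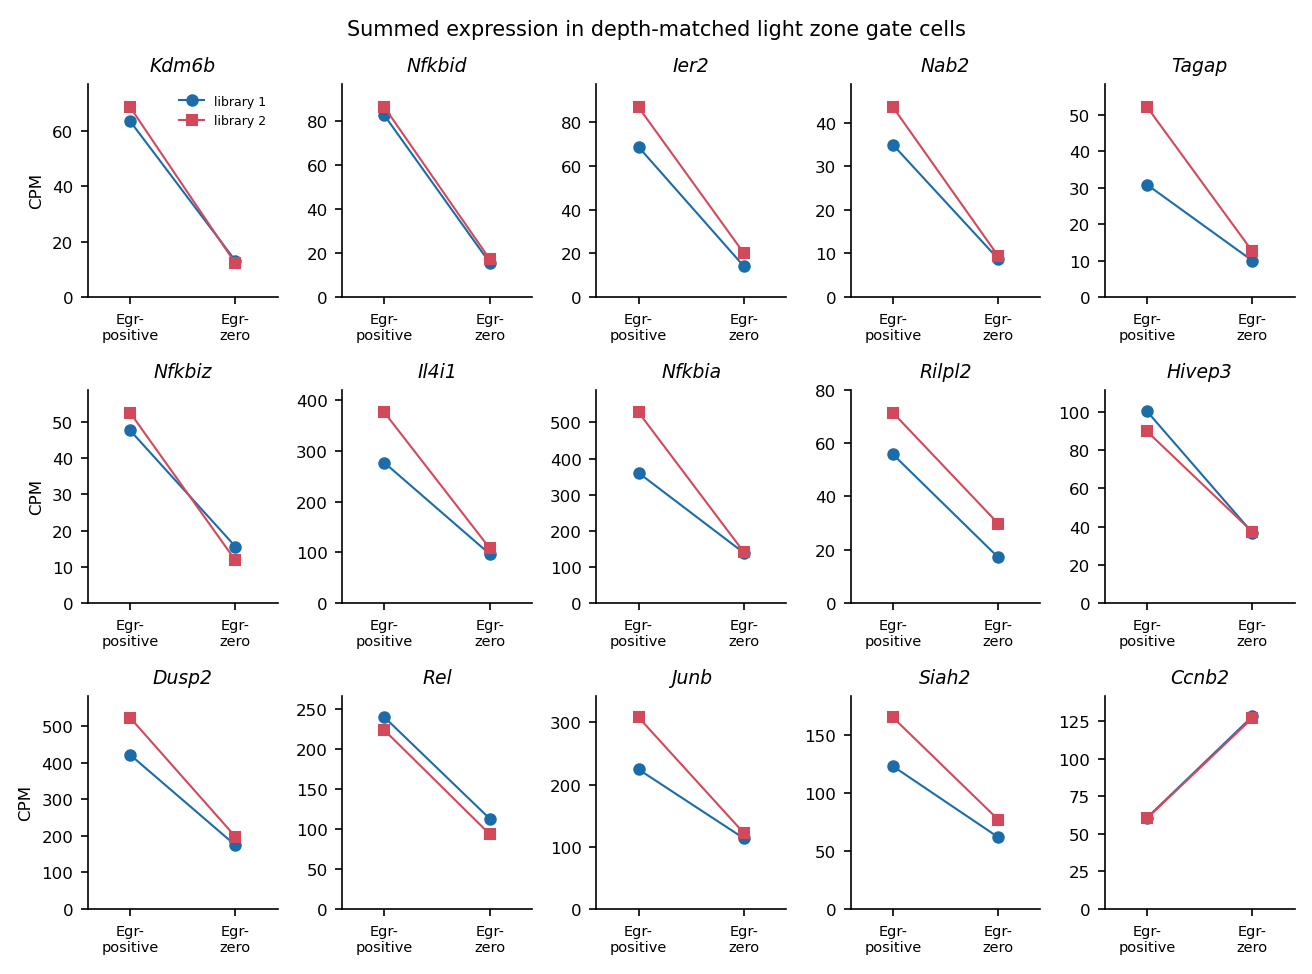
Level of the 15 genes that kept their call under every setting that measured them, in CPM on linear axes from 0, in the summed counts of depth-matched Egr-positive cells (left) and Egr-zero cells (right). Circles are library 1 (285 cells a class) and squares are library 2 (223 cells a class); both libraries were higher in Egr-positive cells for 14 genes and lower for Ccnb2.

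Nfkbid (ENSMUSG00000036931; chromosome 7, 30421732 to 30428746, plus strand) encodes an atypical nuclear IkB protein that lymphocytes switch on after antigen receptor signals. It stood at 82.6 and 86.4 CPM in the Egr-positive cells of libraries 1 and 2, against 15.6 and 17.3 CPM in Egr-zero cells. The groups did not overlap, and the log2 fold change was 2.36 ± 0.15 (SE of the fit, n = 2 libraries; edgeR adjusted p = 3.06e-11). Here and below, the SE of a log2 fold change was derived from the edgeR test statistic. It does not measure the spread between the 2 libraries. A UMI of Nfkbid was found in 34.0% and 38.1% of Egr-positive cells, against 12.6% and 14.3% of Egr-zero cells. With each cell thinned to 2000 UMIs, the shares were 14.7% and 15.7% in Egr-positive cells, against 2.46% and 2.69% in Egr-zero cells. No cell type that should lack these transcripts was present in numbers, so the share that free RNA gives was not measured.

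Kdm6b (ENSMUSG00000018476; chromosome 11, 69398508 to 69413675, minus strand), an H3K27 demethylase, was as much higher. Its level was 63.6 and 68.7 CPM in Egr-positive cells, against 13.1 and 12.2 CPM in Egr-zero cells, and the log2 fold change was 2.36 ± 0.17 (edgeR adjusted p = 2.19e-10). Both Egr-positive values lay above both Egr-zero values. Nfkbia (ENSMUSG00000021025; chromosome 12, 55489410 to 55492647, minus strand), which encodes IkBα, the inhibitor that NF-kB itself induces, reached 361 and 528 CPM in Egr-positive cells, against 139 and 141 CPM in Egr-zero cells (log2 fold change 1.63 ± 0.10, edgeR adjusted p = 7.3e-12). Nfkbiz, another nuclear IkB protein, stood at 47.7 and 52.6 CPM, against 15.6 and 11.8 CPM in Egr-zero cells. Rel, the NF-kB subunit c-Rel that B cells need to divide, stood at 239 and 223 CPM, against 113 and 93.4 CPM in Egr-zero cells. None of these genes overlapped between the classes.

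Promoters of these genes, as RefSeq gives them on GRCm38.p6, are printed to show the sequence around their starts, from 250 bases before the start to 50 bases after it. Of the 15 genes that kept their call, 11 had a promoter in the table used, 13 windows in all. They were searched on both strands for the EGR motif (GCGTGGGCG or GCGGGGGCG), the CRE motif (TGACGTCA), the AP-1 motif (TGAGTCA or TGACTCA), the NF-kB motif and the serum response CArG motif. Capitals mark the matches, and the 5 windows shown are those that held any. Nfkbid had more than 1 window, and the one shown (chr7:30422156-30422455, plus strand) held 2 NF-kB matches and 1 CRE match. Its windows at chr7:30421481-30421780, which covers the gene start given above, and at chr7:30423025-30423324 held no match. The Nfkbia window (chr12:55492598-55492897, minus strand) held 1 NF-kB match. The Rel window (chr11:23770920-23771219, minus strand) held 2 overlapping NF-kB matches, which run together in capitals. The Dusp2 (chr2:127335909-127336208, plus strand) and Tagap (chr17:7925750-7926049, plus strand) windows held 1 EGR match each, that of Tagap on the opposite strand.
Nfkbid: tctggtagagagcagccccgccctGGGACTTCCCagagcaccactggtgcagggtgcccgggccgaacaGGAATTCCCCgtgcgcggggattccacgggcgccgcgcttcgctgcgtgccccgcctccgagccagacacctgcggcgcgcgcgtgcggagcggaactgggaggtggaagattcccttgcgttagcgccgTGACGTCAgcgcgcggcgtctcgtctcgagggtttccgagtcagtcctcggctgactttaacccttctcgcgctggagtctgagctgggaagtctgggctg
Nfkbia: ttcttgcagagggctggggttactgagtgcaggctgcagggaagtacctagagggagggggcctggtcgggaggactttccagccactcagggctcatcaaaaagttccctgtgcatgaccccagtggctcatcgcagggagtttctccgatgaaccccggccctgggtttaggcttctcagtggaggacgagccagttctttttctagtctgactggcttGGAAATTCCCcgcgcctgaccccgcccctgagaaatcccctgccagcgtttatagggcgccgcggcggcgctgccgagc
Rel: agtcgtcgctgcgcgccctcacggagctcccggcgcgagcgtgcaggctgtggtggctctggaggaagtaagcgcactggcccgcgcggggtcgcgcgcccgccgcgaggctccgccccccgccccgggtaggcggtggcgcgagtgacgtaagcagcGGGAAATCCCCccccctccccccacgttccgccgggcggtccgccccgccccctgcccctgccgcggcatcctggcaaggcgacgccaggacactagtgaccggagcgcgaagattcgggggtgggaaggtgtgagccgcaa
Dusp2: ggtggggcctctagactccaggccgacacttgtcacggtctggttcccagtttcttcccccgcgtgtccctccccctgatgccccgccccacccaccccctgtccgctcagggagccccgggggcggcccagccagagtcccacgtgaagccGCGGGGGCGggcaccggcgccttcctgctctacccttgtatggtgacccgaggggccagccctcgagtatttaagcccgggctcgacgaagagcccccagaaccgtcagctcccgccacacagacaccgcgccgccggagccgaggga
Tagap: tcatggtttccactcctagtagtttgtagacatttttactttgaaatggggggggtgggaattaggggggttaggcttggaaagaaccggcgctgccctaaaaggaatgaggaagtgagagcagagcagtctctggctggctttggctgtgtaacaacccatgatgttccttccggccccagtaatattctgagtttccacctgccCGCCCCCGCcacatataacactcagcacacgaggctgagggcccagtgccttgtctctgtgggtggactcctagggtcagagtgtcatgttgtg

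Such matches were found in many other promoters too. The 32851 windows counted did not cover every chromosome, and 194 of the 249 higher genes had a window. An EGR match stood in 3.47% of all these windows and 6.53% of the windows of genes tested. The share was 7.46% for genes higher in Egr-positive cells and 5.49% for genes lower. An NF-kB match stood in 8.46% of all windows, 10.2% for genes tested, 13.4% for genes higher and 14.6% for genes lower. For CRE the shares were 1.79%, 3.41%, 3.36% and 2.44%. For AP-1 they were 5.20%, 3.00%, 2.61% and 3.66%, and for CArG 1.63%, 1.12%, 2.61% and 1.83%, and neither was in the 13 windows. The CArG shares rest on 7 windows of higher and 3 of lower genes. A match describes letters in a window, not a bound site.

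Early response genes moved unevenly. Of 23 listed besides the genes of the rule, 16 had enough counts to be tested, and 8 rose and 0 fell in Egr-positive cells, with a median log2 fold change of 0.44, beside −0.0029 over all genes tested. Ier2 (ENSMUSG00000053560; chromosome 8, 84661331 to 84662852, minus strand), an early gene of growth factor and antigen signals, stood at 68.6 and 86.8 CPM in Egr-positive cells, against 14.04 and 20.02 CPM in Egr-zero cells (log2 fold change 2.19 ± 0.15, edgeR adjusted p = 2.02e-10). Junb, an AP-1 subunit, stood at 225 and 308 CPM, against 114 and 122 CPM in Egr-zero cells (log2 fold change 1.15 ± 0.09), and the groups did not overlap. Zfp36l1, which speeds the decay of messenger RNAs, rose by 0.83 ± 0.09 and the transcriptional repressor Bhlhe40 by 1.28 ± 0.24 on the log2 scale.

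Fos and Jun, the classical AP-1 pair, differed much less. Fos stood at 148 and 133 CPM in Egr-positive cells, against 103 and 109 CPM in Egr-zero cells. It was higher by 0.41 ± 0.10 on the log2 scale (edgeR adjusted p = 0.0121), and passed the test in 8 of 15 other settings. A UMI of Fos was found in 64.9% of Egr-positive against 53.3% of Egr-zero cells in library 1, but in 56.1% against 57.0% in library 2. Jun stood at 53.3 and 53.4 CPM, against 45.9 and 56.1 CPM in Egr-zero cells (log2 fold change 0.07 ± 0.13, edgeR adjusted p = 0.862), and its groups overlapped. Nr4a3, the close relative of Nr4a1, had 3 and 2 UMIs in Egr-positive cells, against 0 and 2 in Egr-zero cells, too few to test.

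Feedback genes of ERK, calcineurin and EGR signals were the next group. Of 16 listed, 13 were tested, and 4 rose and 0 fell (median log2 fold change 0.33). Nab2 (ENSMUSG00000025402; chromosome 10, 127660918 to 127668568, minus strand), which binds EGR proteins and represses their targets, stood at 34.9 and 43.6 CPM in Egr-positive cells, against 8.74 and 9.42 CPM in Egr-zero cells (log2 fold change 2.09 ± 0.20, edgeR adjusted p = 8.29e-08). Dusp2 (ENSMUSG00000027368; chromosome 2, 127336159 to 127338376, plus strand), a nuclear phosphatase that inactivates MAP kinases, stood at 422 and 523 CPM, against 174 and 198 CPM in Egr-zero cells (log2 fold change 1.33 ± 0.08, edgeR adjusted p = 7.3e-12). For both genes all Egr-positive values lay above all Egr-zero values. The related phosphatases Dusp4 and Dusp5 also rose, at 6.86 and 11.0 CPM against 3.74 and 2.35 CPM for Dusp4 and at 21.2 and 11.4 CPM against 11.2 and 5.89 CPM for Dusp5. These 2 calls held in 4 of 12 and 7 of 13 other settings.

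Genes known to follow B cell receptor activation rose in 6 of 12 tested cases, with 0 lower (19 listed, median log2 fold change 0.56). Tagap, a GTPase-activating protein of activated lymphocytes, stood at 30.9 and 52.2 CPM in Egr-positive cells, against 9.99 and 12.6 CPM in Egr-zero cells (log2 fold change 1.84 ± 0.19, edgeR adjusted p = 2.79e-07). Irf4, a transcription factor whose level follows receptor signal strength, stood at 33.4 and 33.4 CPM, against 14.04 and 7.85 CPM in Egr-zero cells (log2 fold change 1.56 ± 0.21), and passed in 12 of 14 other settings. The activation markers Slamf1 and Cd69 rose by 0.89 ± 0.10 and 0.79 ± 0.12 on the log2 scale. Among the receptor's own signaling parts, 18 receptor-proximal genes that were all tested, 1 was higher and 1 lower, with a median of 0.02. Among all genes 2.75% were higher and 1.85% lower, and the difference between the lists was not tested. The higher one was Cr2, the complement receptor of the coreceptor complex, at 167 and 147 CPM against 110 and 122 CPM. The lower one was Syk, the kinase that the receptor activates, at 159 and 154 CPM against 192 and 193 CPM. These 2 calls held in 9 and 7 of 15 other settings. Of 12 inhibitory coreceptor and phosphatase genes, 9 were tested and Cd72 alone was called, higher by 0.40 ± 0.10, in 9 of 15 other settings too.

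NF-kB subunits, inhibitors and targets were the list with the most increases among those signaling lists. Of 25 listed, 23 were tested, and 15 rose and 0 fell (median log2 fold change 0.66). Besides Nfkbid, Nfkbia and Rel, the deubiquitinase Tnfaip3 (A20), which shuts NF-kB off, stood at 27.8 and 44.8 CPM in Egr-positive cells, against 12.2 and 14.5 CPM in Egr-zero cells. Icam1, the adhesion ligand for LFA-1, stood at 124 and 156 CPM, against 68.0 and 68.7 CPM in Egr-zero cells (log2 fold change 1.01 ± 0.11, edgeR adjusted p = 4.57e-07), and passed in 14 of 15 other settings. The noncanonical subunits Relb and Nfkb2 rose by 0.91 ± 0.16 and 0.83 ± 0.14 and Cd40 itself by 0.69 ± 0.15 on the log2 scale. Bcl2a1b and Bcl2a1d, near-identical survival genes whose reads may not be told apart, rose by 0.72 ± 0.12 and 0.62 ± 0.10. Tnfaip3, Relb, Nfkb2, Cd40 and the Bcl2a1 genes were named after their values were seen.

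**Figure D2:**
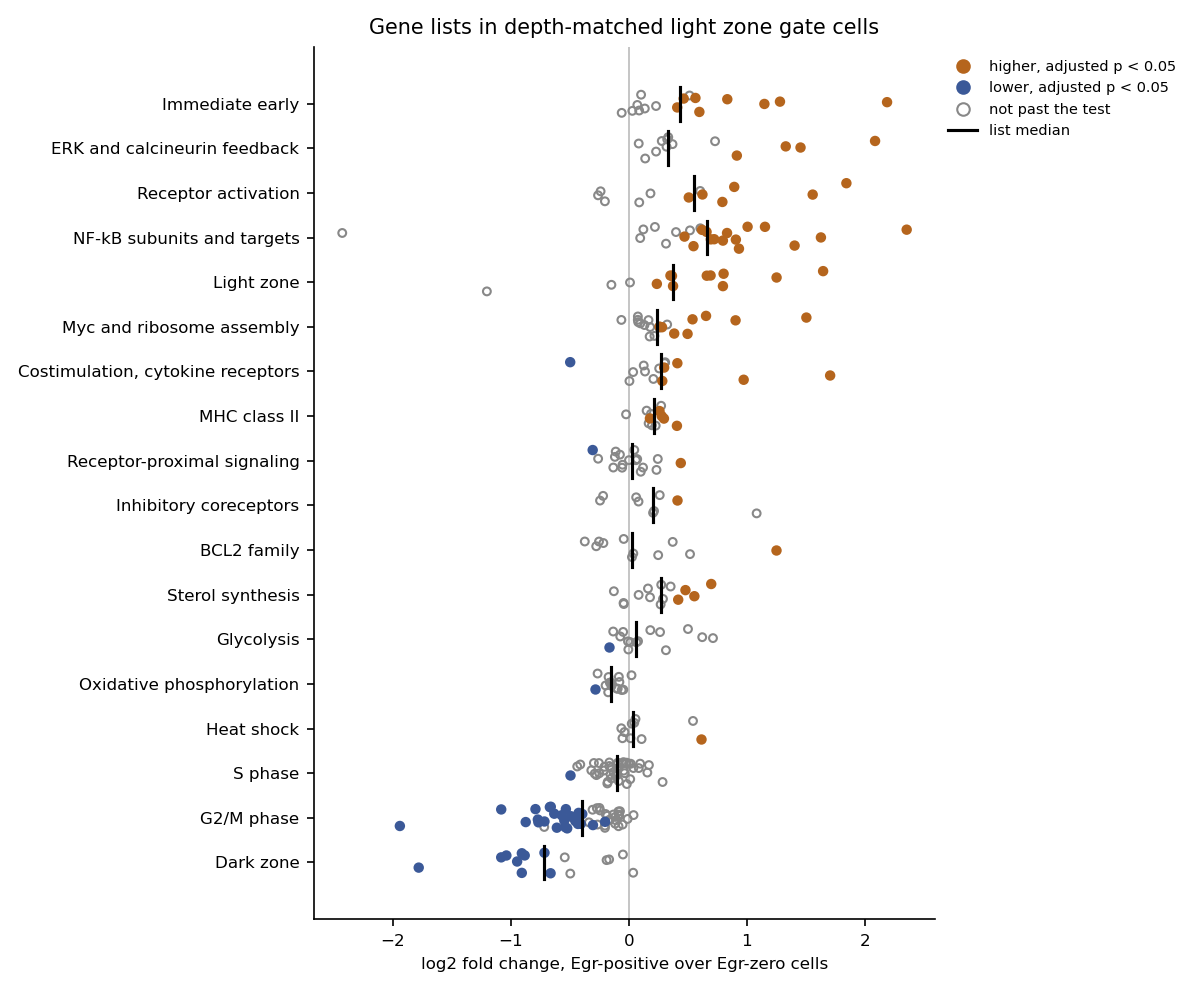
Log2 fold change of each tested gene, depth-matched Egr-positive over Egr-zero cells, by gene list; a black bar marks the list's median. Filled points passed the edgeR test at an adjusted p below 0.05 (brown higher, blue lower) and open points did not. The NF-kB list held 15 higher and 0 lower genes, and the G2/M list 0 higher and 26 lower.

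Myc (ENSMUSG00000022346; chromosome 15, 61985391 to 61990374, plus strand), the growth regulator that marks positively selected light zone cells, stood at 56.8 and 99.7 CPM in Egr-positive cells, against 25.3 and 27.9 CPM in Egr-zero cells. Both Egr-positive values were higher, and the log2 fold change was 1.505 ± 0.153 (edgeR adjusted p = 2.22e-07), which passed in 13 of 15 other settings. A Myc UMI was found in 29.8% and 31.4% of Egr-positive cells, against 14.4% and 14.8% of Egr-zero cells, or 10.9% and 12.1% against 3.51% and 2.24% after thinning. Of 20 Myc and ribosome assembly genes, all tested, 8 rose and 0 fell (median log2 fold change 0.24). Gnl3, the nucleolar protein nucleostemin, stood at 205 and 244 CPM in Egr-positive cells, against 127 and 157 CPM in Egr-zero cells.

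Genes of cell cycle entry did not move as a group. Of 14 listed, 12 were tested, and 3 rose and 1 fell (median log2 fold change 0.03). Ccnd2, the cyclin induced as selected cells enter the cycle, stood at 47.4 and 107 CPM in Egr-positive cells, against 27.5 and 23.2 CPM in Egr-zero cells. The libraries differed in size of the change, with log2 fold changes of 0.77 in library 1 and 2.20 in library 2, and the call was kept in 10 of 15 other settings. Ccnd2 was found in 18.2% and 19.7% of Egr-positive cells, against 7.02% and 7.62% of Egr-zero cells, which was alike in the 2 libraries. Ccnd3, the cyclin that drives dark zone divisions, fell to 202 and 185 CPM in Egr-positive cells, against 262 and 291 CPM in Egr-zero cells (log2 fold change −0.51 ± 0.09, edgeR adjusted p = 0.000294). The kinase gene Pim1 rose by 0.62 ± 0.10 on the log2 scale.

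Receptors and ligands of T cell help included 5 genes that rose and 1 that fell, among 14 tested of 17 (median log2 fold change 0.27). Tnfsf9, the costimulatory ligand 4-1BBL, stood at 19.6 and 23.2 CPM in Egr-positive cells, against 5.93 and 7.07 CPM in Egr-zero cells (log2 fold change 1.71 ± 0.26, edgeR adjusted p = 8.67e-05), and passed in 11 of 14 other settings. Il2rg, the common γ chain that receptors of interleukins 4 and 21 use, stood at 74.5 and 62.8 CPM, against 33.4 and 36.9 CPM in Egr-zero cells. Neither gene overlapped between the classes. Slamf6, a receptor of B cell contact with T cells, was the gene that fell, by 0.50 on the log2 scale, a call kept in 8 of 15 other settings. MHC class II genes, which present antigen to helper T cells, rose in 5 of 12 cases and fell in 0, by small amounts (median 0.21). H2-Aa stood at 1475 and 2002 CPM in Egr-positive cells, against 1150 and 1444 CPM in Egr-zero cells (log2 fold change 0.41 ± 0.06).

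Although both classes had passed the same light zone gate, zone genes differed between them. Of 15 further light zone genes, 13 were tested, and 10 rose and 0 fell (median log2 fold change 0.37). Il4i1 (ENSMUSG00000074141; chromosome 7, 44816387 to 44840809, plus strand), a secreted amino acid oxidase of activated B cells, stood at 277 and 376 CPM in Egr-positive cells, against 96.7 and 108 CPM in Egr-zero cells (log2 fold change 1.65 ± 0.09, edgeR adjusted p = 5e-12). Its gene shares exons with Nup62 on the same strand in GENCODE M21, so reads of the 2 genes may not be told apart. Fcer2a, which encodes CD23, stood at 268 and 288 CPM, against 159 and 157 CPM in Egr-zero cells. Gpr183, the receptor that draws B cells toward the outer follicle, stood at 17.2 and 23.6 CPM, against 5.93 and 11.4 CPM, and passed in 9 of 13 other settings.

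Of 15 dark zone genes, all tested, 0 rose and 9 fell in Egr-positive cells (median log2 fold change −0.72). Gcsam, a germinal center signaling adaptor, stood at 57.1 and 45.9 CPM in Egr-positive cells, against 114 and 77.3 CPM in Egr-zero cells (log2 fold change −0.91 ± 0.12, edgeR adjusted p = 1.11e-05). Lig4, the ligase of DNA end joining, and Rgcc, a cell cycle regulator, fell by 1.04 and 0.91 on the log2 scale. Their calls held in 9 of 13 and 11 of 14 other settings. Several genes of this list also belong to mitosis, among them Ccnb2 and Hmmr.

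Genes of mitosis were lower while S phase genes mostly did not pass the test. Of 53 G2/M genes, all tested, 0 rose and 26 fell (median log2 fold change −0.40). Of 43 S phase genes, all tested, 0 rose and 1 fell (median −0.10). Ccnb2 (ENSMUSG00000032218; chromosome 9, 70407692 to 70421547, minus strand), cyclin B2 of mitotic entry, stood at 60.8 and 60.5 CPM in Egr-positive cells, against 128 and 127 CPM in Egr-zero cells (log2 fold change −1.08 ± 0.11, edgeR adjusted p = 1.34e-07). Cdkn3, a phosphatase of cyclin-dependent kinases, fell by 1.10 and Cdc20, the activator of the anaphase-promoting complex, by 0.87 on the log2 scale. The median share of a cell's UMIs that came from S and G2/M genes was 1.04% and 0.996% in Egr-positive cells, against 1.43% and 1.44% in Egr-zero cells, a difference of −0.42 ± 0.03 percentage points (SD, n = 2 libraries). Its size rested on the matching: against all Egr-zero cells, whose medians were 1.07% and 1.18%, it was −0.094 ± 0.091 percentage points. With pairs matched on that share as well as on depth, 193 genes were higher and 142 lower, and 221 of the calls were shared with those above.

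Metabolic lists differed in their calls. Among all genes 2.75% were higher and 1.85% lower, and the difference between lists was not tested. The median log2 fold change was 0.27 for sterol genes and 0.36 for amino acid transporters, against 0.06 for glycolysis and −0.15 for oxidative phosphorylation. Of 14 sterol genes, all tested, 4 rose and 0 fell, among them Cyp51, an enzyme of cholesterol synthesis, at 116 and 120 CPM in Egr-positive cells, against 82.1 and 94.2 CPM in Egr-zero cells (edgeR adjusted p = 0.0137). Cyp51 was called in this direction in 8 of 15 alternative settings. Without cells holding a UMI of other lineages' genes, 0 sterol genes were called higher, beside only 22 of all 8549 genes tested in that setting. Of 9 amino acid transporter genes, 7 were tested and 2 rose, Slc38a2 and Slc7a1. Glycolysis had 0 higher and 1 lower gene of 15 tested (Gapdh, by −0.17), and oxidative phosphorylation 0 higher and 1 lower of 16 (Sdhb, by −0.29). The BCL2 family had 1 higher and 0 lower gene of 11 tested. It was Bcl2l1, the survival gene that encodes BCL-XL, at 21.5 and 28.3 CPM in Egr-positive cells, against 8.11 and 13.0 CPM in Egr-zero cells.

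Heat shock genes, the chaperones of the stress response, had 1 higher gene of 10 tested. It was Hspa5, the chaperone of the endoplasmic reticulum, at 620 and 602 CPM in Egr-positive cells, against 340 and 467 CPM in Egr-zero cells. Hsp90aa1 stood at 1358 and 1409 CPM, against 1373 and 1487 CPM in Egr-zero cells (log2 fold change −0.05 ± 0.05, edgeR adjusted p = 0.708). The interferon list had 1 higher and 1 lower gene of 9 tested.

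Few markers of exit from the germinal center passed the test, as among all genes, of which 2.75% were higher and 1.85% lower. The difference between these lists and all genes was not tested. The memory list had 0 calls in 8 genes tested, with a median log2 fold change of 0.28 and 7 genes above 0. Ccr6, a receptor of memory precursors, stood at 11.9 and 10.2 CPM in Egr-positive cells, against 7.49 and 7.46 CPM in Egr-zero cells (log2 fold change 0.56 ± 0.30, edgeR adjusted p = 0.384). Prdm1, the plasma cell regulator Blimp-1, had 19 and 10 UMIs in Egr-positive cells, against 4 and 2 UMIs in Egr-zero cells, below the 40 UMIs needed to be tested. Without that limit its edgeR adjusted p was 0.258. Of 10 plasma cell genes, 6 were tested and Irf4 alone was called. Of 11 naive B cell genes, 10 were tested, and Fcer2a and Ms4a4c were higher and Vpreb3 lower. Of 15 germinal center identity genes, 1 was higher, Lmo2, and 2 were lower, Gcsam among them.

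Transcripts of other lineages' genes were found in both classes. At least 1 UMI of a screen of such genes was found in 24.9% and 28.7% of Egr-positive cells, against 23.9% and 23.3% of Egr-zero cells. T cell genes, 11 listed, came to 3.74 and 7.46 CPM in sum in Egr-positive cells, against 4.99 and 3.92 CPM in Egr-zero cells, and Cd3e was at 0 in all sums. Macrophage genes, 14 listed, came to 9.98 and 39.3 CPM, against 155 and 9.42 CPM in Egr-zero cells. In the Egr-zero cells of library 1, 1 barcode held 117 of the 120 UMIs of Vcam1 and 1 barcode held 64 of the 65 of C1qb. In the Egr-positive cells of library 2, 1 barcode held all 13 UMIs of Vcam1 and 1 barcode all 13 of C1qb. Whether the same barcode held both genes was not examined. Vcam1 was called lower in Egr-positive cells over both libraries, but in library 2 alone its log2 fold change was 4.91. Without any cell holding a UMI of the screen, 213 and 160 pairs were left, and 22 genes were higher and 7 lower, all 29 among the 416 calls above. The calls of Myc, Irf4, Ccnd2, Tnfsf9 and Plac8 were among those lost. The fit changed too: the dispersion shared across genes weighed 6.28 degrees of freedom in this setting, against 24.5 in the first comparison. What part of the loss came from the cells left out and what from the fit was not tested. Without barcodes holding 3 or more UMIs of the screen, a setting added after seeing the data, 346 genes were higher and 238 lower, and 402 of the calls were shared. Dendritic cell genes came to 59.6 and 67.5 CPM against 65.2 and 57.3 CPM, and erythroid genes to 40.2 and 47.1 CPM against 52.1 and 43.6 CPM. Their part in the results was not tested.

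Among the genes that kept their call, Rilpl2, Hivep3 and Siah2 belonged to none of these lists, nor did Kdm6b and Nfkbiz, described above. Rilpl2, Hivep3 and Siah2 were picked out after their values were seen. Hivep3, a zinc finger protein of the Schnurri family, stood at 100.4 and 89.9 CPM in Egr-positive cells, against 36.8 and 37.3 CPM in Egr-zero cells. Siah2, a ubiquitin ligase, stood at 124 and 166 CPM, against 62.1 and 77.3 CPM. Rilpl2, a regulator of cilium and vesicle transport, stood at 55.8 and 71.5 CPM, against 17.2 and 29.8 CPM. In contrast, the increase of Plac8 (log2 fold change 1.89 ± 0.21) came from few cells. It was found in 13 of 285 and 13 of 223 Egr-positive cells, and 1 cell gave 28.6% of its UMIs in library 1 and 1 cell 48.9% in library 2.

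Within the gate, the levels of some genes called higher also followed the number of Egr sum UMIs, and those of others did not. Nfkbid stood at 14.1, 30.2, 39.5, 76.2 and 145 CPM in gate cells of library 1 with an Egr sum of 0, of 1, of 2, of 3 to 5 and of 6 or more, and at 19.1, 37.4, 40.4, 83.1 and 160 CPM in library 2. Kdm6b followed the same order, at 15.7, 25.5, 37.9, 53.3 and 112 CPM in library 1 and at 16.1, 28.7, 41.5, 73.2 and 104 CPM in library 2. Cells of sum 1, just below the threshold, thus lay between the Egr-zero and the Egr-positive cells for both genes. For Nfkbia the order held except between sums of 1 and 2, at 147, 215, 213, 336 and 567 CPM in library 1 and at 179, 322, 284, 574 and 810 CPM in library 2. Other called genes were out of order: Rgs1, a regulator of G protein signals, stood at 82.6, 80.9, 95.5, 55.9 and 90.7 CPM in library 1, and Fcer2a at 214, 252, 220, 311 and 253 CPM. Fos showed no such order, at 135, 137, 142, 120 and 181 CPM in library 1 and at 130, 144, 138, 140 and 109 CPM in library 2. Depth was not matched here: the median total was 5971.5 UMIs at sum 0 and 9452 UMIs at 6 or more in library 1, and 5833.5 and 10553 UMIs in library 2. No test was made across these classes. For Rgs1 and Fos, the depth-matched Egr-zero cells lay below all Egr-zero cells. Rgs1 stood at 65.8 and 51.4 CPM in matched Egr-zero cells, against 82.6 and 82.4 CPM in all of them. It stood at 79.8 and 90.3 CPM in matched Egr-positive cells. Fos stood at 103 and 109 CPM in matched Egr-zero cells. The calls of Rgs1 and Fos are those against the matched cells.

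**Figure D3:**
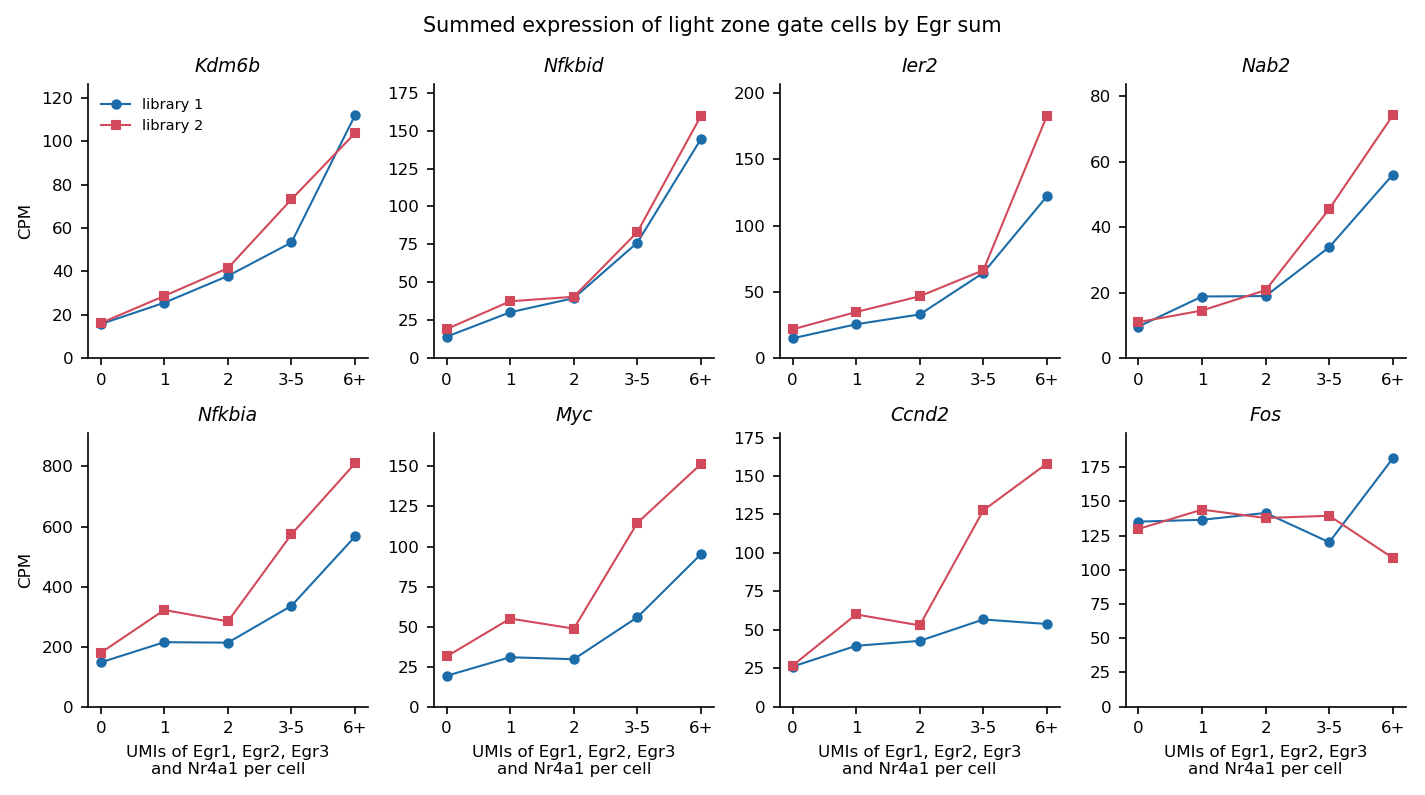
Level of 8 genes in CPM, on linear axes from 0, in the summed counts of all light zone gate cells by their Egr sum (0, 1, 2, 3 to 5, 6 or more), without matching on depth. Circles are library 1 and squares library 2. Nfkbid reached 145 and 160 CPM at sums of 6 or more, against 14.1 and 19.1 CPM at 0, whereas Fos stayed between 109 and 181 CPM in all classes.

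The second comparison asked how Egr-positive cells vary among themselves. Egr2 or Egr3 was found in 125 cells of library 1 (43.7%) and 108 of library 2 (48.2%), and the other 161 and 116 cells had Egr1 or Nr4a1 only. Matched on depth as before, 119 and 87 pairs were left, called Egr2/Egr3 cells and Egr1/Nr4a1-only cells. The classes also differed in the Egr sum, with a median of 4 in Egr2/Egr3 cells against 2 in Egr1/Nr4a1-only cells, so which gene was found and how many UMIs were found cannot be told apart. Of 7554 genes tested, 286 were higher in Egr2/Egr3 cells (3.79%) and 190 were lower (2.52%) by edgeR, 6.3% in all, and the groups did not overlap in 39.6% of the genes. By DESeq2, 25 were higher and 11 lower. The call held for 14 genes, all higher, under every one of the 5 other settings that could measure them.

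Several genes named above differed between these classes as well. Both comparisons use the same Egr-positive cells, and Egr2/Egr3 cells have the higher Egr sums, so the second is no independent check of the first. Nfkbid stood at 160 and 182 CPM in Egr2/Egr3 cells, against 25.4 and 41.5 CPM in Egr1/Nr4a1-only cells (log2 fold change 2.43 ± 0.17, edgeR adjusted p = 1.25e-40). Myc stood at 94.6 and 107 CPM, against 26.1 and 39.2 CPM (log2 fold change 1.69 ± 0.19). Nab2 stood at 58.9 and 71.5 CPM, against 17.9 and 21.9 CPM, and Kdm6b at 102 and 113 CPM, against 33.6 and 38.1 CPM. None of these groups overlapped. The other genes that kept their call were Rilpl2, Nfkbia, Ier2, Il4i1, Icam1, Nfkbie, Siah2, Slfn2, Junb and Pim1. Of these 14 genes, Nfkbid alone was chosen by the rule for named genes, and the others were named after their values were seen.

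The rule for named genes chose 5 genes in each direction. Besides Nfkbid, these were Nrgn, Ankrd33b, Marcks and Rasgef1b among the higher ones, of which Ankrd33b and Rasgef1b kept their calls in 2 and 1 of 4 other settings. Marcks, a substrate of protein kinase C that tethers the actin cytoskeleton to the membrane, stood at 89.4 and 130 CPM in Egr2/Egr3 cells, against 32.9 and 16.2 CPM in Egr1/Nr4a1-only cells, and its call held in 3 of 4 of them. Nrgn, which binds calmodulin, stood at 24.6 and 61.1 CPM, against 8.21 and 4.62 CPM. The lower ones were Hist1h2bb, Mastl, Rgcc, Hist1h2ab and Gen1, by −1.38 to −1.19 on the log2 scale, and their calls held in 0 or 1 of 4 other settings. Hist1h2bb and Hist1h2ab encode replication histones whose copies are close to identical, so reads of the copies may not be told apart.

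**Figure D4:**
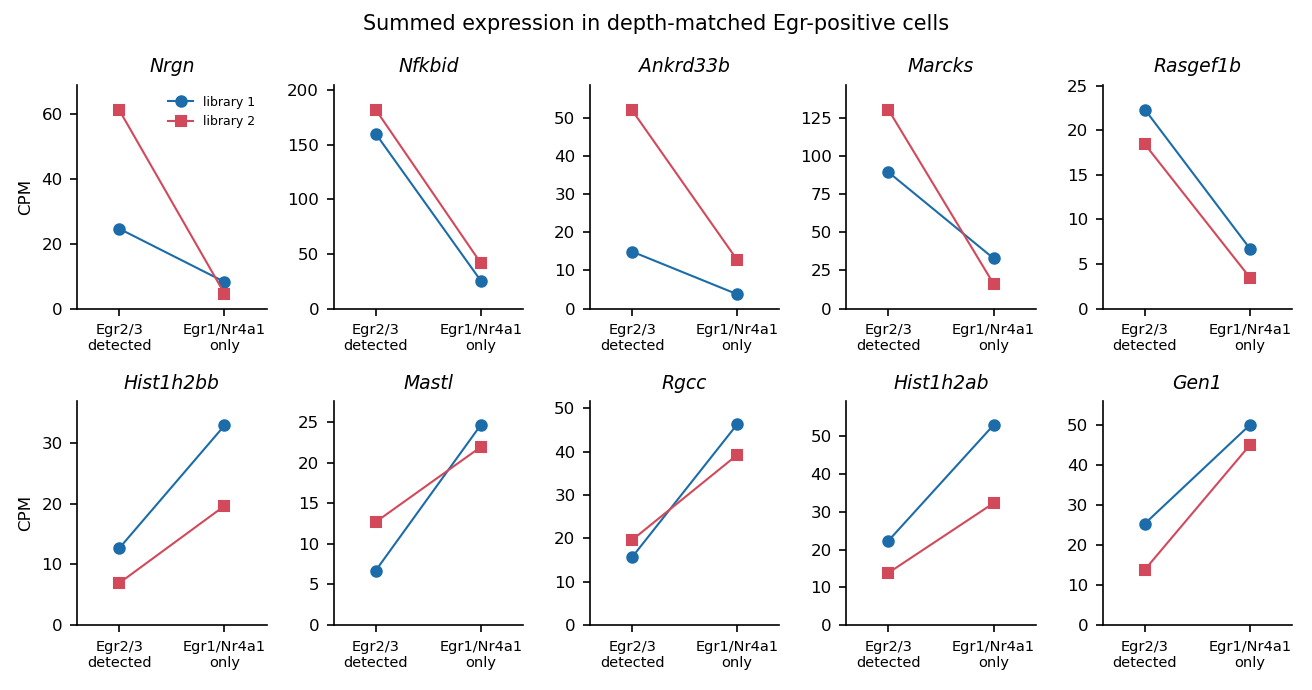
Level of the 10 genes that the naming rule chose in the second comparison, in CPM on linear axes from 0, in depth-matched Egr2/Egr3 cells (left) and Egr1/Nr4a1-only cells (right). Circles are library 1 (119 cells a class) and squares library 2 (87 cells a class); the upper 5 genes were higher and the lower 5 lower in both libraries.

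By list, NF-kB genes had 17 higher and 0 lower of 22 tested (median log2 fold change 0.82, beside 0.0012 over all genes tested). The Myc and ribosome assembly list had 10 higher and 0 lower of 20, and MHC class II 7 higher and 0 lower of 12, with H2-Aa at 1763 and 2474 CPM in Egr2/Egr3 cells against 1167 and 1686 CPM in Egr1/Nr4a1-only cells. The early response list split, with 6 higher and 3 lower of 16. The lower ones, named after their values were seen, were Klf2, Jun and Fos. Fos stood at 139 and 95.7 CPM in Egr2/Egr3 cells, against 161 and 172 CPM in Egr1/Nr4a1-only cells (log2 fold change −0.44 ± 0.13, edgeR adjusted p = 0.015). Genes of G2/M were lower in 22 of 52 cases and higher in 0, and S phase genes lower in 8 of 43 and higher in 0. The median share of UMIs from cycle genes was 0.810% and 0.662% in Egr2/Egr3 cells, against 1.34% and 1.12% in Egr1/Nr4a1-only cells. The median mitochondrial share was also lower, at 13.1% and 12.2% against 15.1% and 15.8%, and its part in these results was not tested.

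The difference in isotype shares between Egr-positive and Egr-zero cells changed direction with the cells compared. Among cells that could be called, IgG cells made up 51.3% (95% exact binomial interval 44.6% to 58.1%) and 52.7% (45.2% to 60.2%) of Egr-positive cells, against 51.9% (44.9% to 58.8%) and 49.7% (42.2% to 57.2%) of Egr-zero cells. The difference was 1.23 ± 2.54 percentage points (SD, n = 2 libraries), less than the spread between libraries. It exceeded that spread in other settings, at −5.76 ± 2.73 points without matching, 4.81 ± 0.86 at a mitochondrial limit of 10% and 7.04 ± 0.62 with Egr sums of at least 3. The intervals cover counting error only. With 2 libraries an exact permutation test cannot reach the threshold, so none was made.

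The share of cells with an Egr sum of at least 2 was also counted outside the light zone gate. It was 12.5% and 13.1% in the light zone gate, 10.8% and 10.3% in kept barcodes with both Cxcr4 and Cd83 or Cd86, 4.33% and 2.91% in those with neither, and 5.12% and 4.38% in the dark zone gate, which has Cxcr4 and neither of the others. After thinning to 2000 UMIs before gating, 3.71% and 3.90% of light zone gate cells and 0.936% and 0.615% of dark zone gate cells reached that sum. So did 3.02% and 3.88% of barcodes with both signals and 1.36% and 1.13% of those with neither. Both the gates and the sum are made of genes of the rule, so these shares are a description without a test.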

How the data were processed

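The deposited matrices hold UMI counts per gene and cell barcode, not normalized, made with Cell Ranger 3.0.2, per the file headers. The submitters' processing notes name the mm10 build, and further settings are not given in the sources used here. Members and gene lists were chosen with earlier results of these data known. Each Egr-positive cell was matched without replacement, in a seeded order, to the Egr-zero cell of its library nearest in log total UMIs, within 10%. Counts were summed per library and class, since cells are not replicates, and tested with edgeR 4.0.16 (R 4.3.3; TMM, quasi-likelihood, library as a block, genes with at least 40 UMIs over the 4 sums, Benjamini-Hochberg adjusted p below 0.05). DESeq2 1.42.0 was an alternative.

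Such a fit has 1 residual degree of freedom per gene before dispersion is shared across genes. The shared part weighed 24.5 degrees of freedom in the first comparison and had no limit in the second. A gene's own disagreement between libraries thus counted little, and in the second not at all. The p-values rest on counting error and a spread between libraries pooled across genes, which may be technical. In data simulated with the gene shares and depths of the first comparison, 127 of 200 genes changed 2-fold were recovered, with 6 false calls. At 1.5-fold, 1 of 200 was recovered. From the second, 94 and 0 of 200 were recovered. The dispersion of the simulated data was set by hand to the same value for every gene, above the common dispersions fitted, 0.00208 and 0.00157. Recovery at the fitted values was not measured, nor were false calls where genes differ in dispersion. The false calls are thus no error rate for the calls reported here. Scrublet within scanpy 1.11.5 scored doublets and called 0. A cell was called IgG if 80% or more of its heavy chain constant UMIs, 5 or more in number, were of IgG. Coordinates are counted from 1. Both sums of a library come from that library, so the block pairs them.

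Named genes were the 15 largest increases and 10 largest decreases among calls of the same sign in both libraries with at least 20 CPM in the higher class, without immunoglobulin, predicted, mitochondrial and ribosomal protein genes, the 4 members of each list with the lowest adjusted p, and 8 fixed genes, Myc, Ccnd2, Fos, Jun, Nr4a3, Irf4, Ccr6 and Prdm1; in the second comparison 5 in each direction. In GENCODE M21, exons overlap another gene on the same strand for Il4i1, Gnl3, Hivep3 and Il2rg, and on the opposite strand for Nab2, Kdm6b, Junb, Tagap, Cyp51, Icam1, Ccnd2, Ccnd3, Tnfsf9, Pim1, Bhlhe40, Cd72, Cdc20, Dusp5, Gapdh, Hist1h2ab, Jun, Ms4a4c, Vcam1 and Zfp36l1. Whether counting used strand is not given in the sources used here, so reads may be shared. Values of some listed genes are not reported here.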

Additional observations from a re-analysis of the deposited data

Results flagged for a closer look

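Cells with an Egr sum of 2 or more also occurred in the dark zone gate, and were marked for a closer look because the comparisons did not use them. There were 54 among 1054 cells in library 1 (5.12%, 95% exact binomial interval 3.87% to 6.63%) and 33 among 753 in library 2 (4.38%, 3.04% to 6.10%). The intervals cover counting error only, and the sum is that of the rule, so no test was made. Cells with no detected Cd83 or Cd86 UMI may still express these genes, and what part of these cells belongs to the light zone was not tested.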

How the results depend on the processing

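The number of calls was the value that moved most. In the first comparison (249 higher and 167 lower), all Egr-zero cells without matching gave 978 and 734. Taking as members all gate cells with an Egr2 or Egr3 UMI, also those with an Egr sum of 1, gave 517 and 403. Matching on mitochondrial share as well gave 162 and 82, gates after thinning to 2000 UMIs 152 and 93, and leaving out cells with any UMI of other lineages' genes 22 and 7. DESeq2 gave 24 and 15, no replicate block 24 and 2, and no filter on low counts 16 and 2. The lower count alone moved by over 1.5 times with another order of matching (253), without the highest 6% of doublet scores (255) and without TMM (95). All 39 calls of DESeq2, all 26 without the block, all 18 without the filter and all 29 without other-lineage cells were among the 416. In the second comparison (286 and 190), no matching gave 71 and 17, DESeq2 25 and 11, no replicate block 37 and 4, and no filter 23 and 3. The cause was not tested.

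The IgG difference of 1.23 points was −5.76 without matching, 4.81 at a mitochondrial limit of 10% and 7.04 with Egr sums of at least 3, and ranged from −0.565 to 3.02 with each library left out. The cycle gene difference of −0.42 points was −0.094, −0.38 and −0.35 in those settings, and −0.439 to −0.394 with each library left out. Without matching, the log2 fold changes of Cd74, Hsp90aa1 and Jun turned to −0.0049, 0.15 and −0.36. With thinning those of Vpreb3 and Jun turned to 0.018 and −1.39, and that of Vcam1 was −6.29 without library 2 and 4.91 without library 1. Depth limits genes below the 40 UMIs tested, such as Prdm1 and Nr4a3.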
